A study of Rattus norvegicus with 9 samples.

Results

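The interleukin 1 family genes and the inflammasome genes that process their products were followed here in the mononuclear cells of rat blood. They were the 10 genes Il1a, Il1b, Il1rn, Il1r1, Il1r2, Il18, Casp1, Casp4, Nlrp3 and Pycard, taken with every probe that the array files name for them or that reads one of their RefSeq transcripts, which gave 15 of the 41012 probes. On the array 15321 genes had a name, and 10506 of them passed the filter on dim probes. The cafeteria group was 5 male Wistar rats aged 6 months offered palatable fat-rich food beside their chow since they were 2 months old, that is for 4 months, a regime that makes rats obese. The control group was 4 male Wistar rats of the same age on standard chow, after the authors left out 1 further control for too little RNA. All were bled in the fed state, the mononuclear cells (PBMC, lymphocytes and monocytes) were separated on a Ficoll gradient, and each animal had 1 array. The animals are called by the numbers in their labels, 1, 4, 7, 10 and 13 for cafeteria and 1, 4, 7 and 13 for control.

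Interleukin 1 beta and interleukin 18 are made as inactive precursors and are cut to their active form by caspase-1. Caspase-1 is activated on an inflammasome, a complex in which a sensor such as NLRP3 gathers the adaptor ASC, the product of Pycard. In blood, monocytes are the main source of interleukin 1 beta, and they also make its antagonist, encoded by Il1rn, which binds the receptor without signalling. An array reads the RNA of these genes, not the cutting of the proteins.

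Values are log2 ratios of an animal's Cy5 signal over the Cy3 signal of a reference pooled from all samples, so they rank animals within a probe and say nothing of one gene's abundance against another's. The share of spots with Cy5 well above background was 58.8% to 66.7% per array, 25808 probes passed the filter of at least 4 arrays well above background, and 2 of them (0.00775%) passed an adjusted p threshold of 0.05 by limma. The model used to correct the background fitted a much wider background on the arrays of cafeteria 4 and control 4 (Cy5 standard deviations of 946 and 997 intensity units) than on the other arrays (1.17 to 66.3), which draws the log2 ratios of dim probes on those arrays toward 0. Values without background correction are therefore given beside the dim members. Some brighter members moved on those arrays too. The brighter Pycard probe in control 4 was -0.05 with the correction and 0.07 without it. In cafeteria 4 the brighter Il1rn probe was 0.69 with it and 0.80 without it. Casp4 in control 4 was 0.10 with it and 0.25 without it. Markers of T cells (12 of 13 listed genes), B cells (8 of 10) and monocytes (14 of 16) passed the filter, as the tissue label requires. In RNA from mixed blood cells, fewer cells of a type and less RNA per cell cannot be told apart.

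Of the 15 member probes, 12 probes of 8 genes passed the filter and were tested. None passed the adjusted threshold (0 of 12, beside 0.00775% of all probes), and none had an unadjusted limma p under 0.05, beside 4.4% of all probes (1.54% higher and 2.86% lower in cafeteria). The adjusted p was 0.997 for each. The lowest unadjusted p was 0.0583, for Il1b. The log2 fold change was below 0 for 9 probes and above 0 for 3, with a median of -0.07, beside a median of 0.0092 and a share below 0 of 45.7% over all probes. No member probe had groups that did not overlap, beside 1.26% of all probes. The plot of members by animal shows the spread behind these counts.

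**Figure D1:**
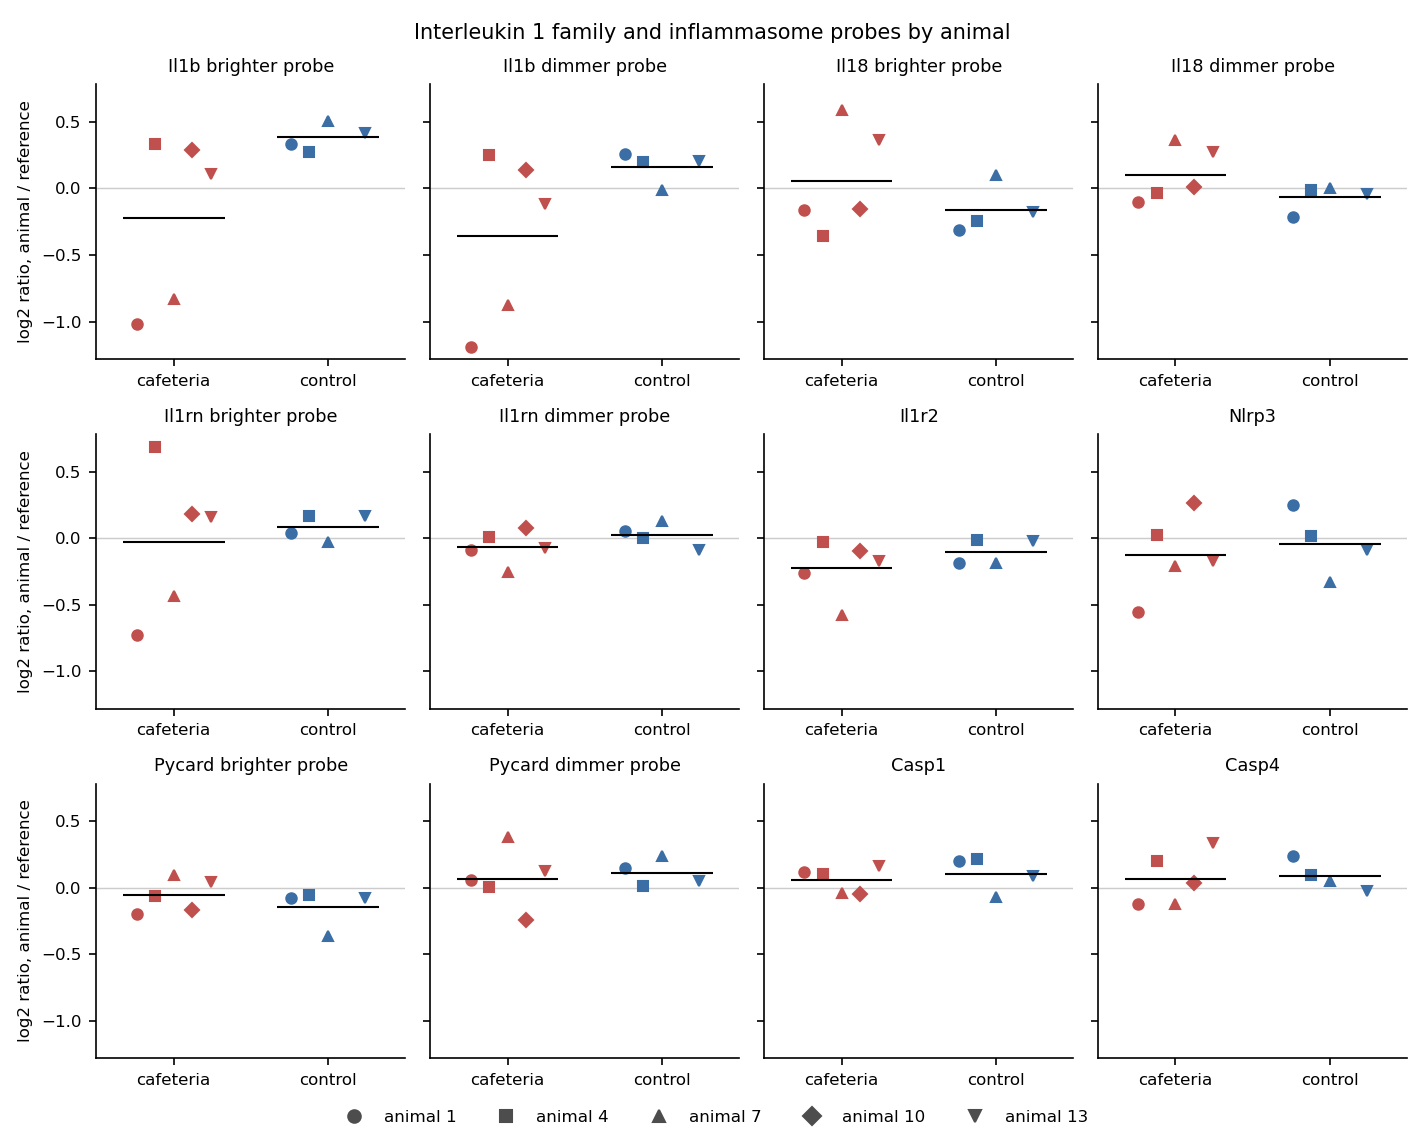
Log2 ratio of animal over pooled reference for the 12 member probes tested. Each point is 1 animal (5 cafeteria, 4 control), its shape the animal's number, and the black line is the group mean. Both Il1b probes and the brighter Il1rn probe have cafeteria 1 and cafeteria 7 far below the other animals, while Casp1 keeps within a range of 0.286.

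Il1b, the secreted interleukin 1 beta, was the member furthest apart, and its spread lay in the cafeteria group. Because Il1b and Il1rn were low in the same animals, the stretches around their transcription start sites are shown, 250 bases before to 50 after, from RefSeq on the GRCr8 build.
Il1b, chr3:137036532-137036831, minus strand: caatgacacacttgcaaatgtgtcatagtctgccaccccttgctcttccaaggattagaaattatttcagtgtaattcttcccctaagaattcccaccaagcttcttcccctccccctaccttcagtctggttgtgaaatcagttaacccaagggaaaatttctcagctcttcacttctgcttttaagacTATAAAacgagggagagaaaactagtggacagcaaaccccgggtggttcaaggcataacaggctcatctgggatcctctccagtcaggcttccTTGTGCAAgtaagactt
Il1rn, chr3:27520072-27520371, plus strand: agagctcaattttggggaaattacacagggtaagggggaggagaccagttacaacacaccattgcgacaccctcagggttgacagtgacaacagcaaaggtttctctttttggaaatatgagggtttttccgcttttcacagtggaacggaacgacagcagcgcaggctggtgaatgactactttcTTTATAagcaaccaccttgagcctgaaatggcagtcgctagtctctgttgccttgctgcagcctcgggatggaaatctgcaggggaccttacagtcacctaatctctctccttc
Capitals mark matches to 4 motifs searched on both strands, with no overlap between them: the TATA box TATAAA, the NF-kB motif GGGANTTTC, the AP-1 motif TGANTCA and the C/EBP motif TTGCNNAA. Il1b holds TATAAA at position 191 of its window and a C/EBP match on the opposite strand at position 284, which lies after the start site. Il1rn holds TATAAA on the opposite strand at position 187. TATAAA occurred in 14.2% of the 33469 promoters in that table, the C/EBP motif in 10.6%, the AP-1 motif in 7.33% and the NF-kB motif in 1.15%. A match describes the letters only.

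Il1b has a pair of probes, at chr3:116964465-116964524 and chr3:116964716-116964775 on the minus strand (rn4 build, as given in the files, which do not name exons or untranslated regions). The brighter probe gave log2 ratios of -1.02, 0.34, -0.83, 0.29 and 0.11 in cafeteria animals 1, 4, 7, 10 and 13, against 0.33, 0.27, 0.51 and 0.42 in control animals 1, 4, 7 and 13. Cafeteria 1 and cafeteria 7 stood far below all others, cafeteria 4 and 10 lay within the control range, and cafeteria 13 lay below it by less than the other pair. The group means were -0.22 ± 0.65 (SD, n = 5) in cafeteria and 0.38 ± 0.10 (SD, n = 4) in control. The log2 fold change of -0.60 (SE 0.28, 95% confidence interval -1.24 to 0.03) corresponds to a 0.658-fold level and did not pass the test (limma, adjusted p = 0.997). A two-sided exact permutation test over the 126 splits of the animals gave p = 0.143, where the smallest possible is 0.00794.

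The dimmer Il1b probe gave -1.19, 0.25, -0.87, 0.14 and -0.12 in cafeteria animals, against 0.26, 0.20, -0.01 and 0.21 in control animals. The same 2 cafeteria animals were lowest. Its log2 fold change was -0.52 (SE 0.28, exact permutation p = 0.183), and the probes followed each other across the 9 arrays (r = 0.97, a description). Leaving out single animals moved the log2 fold change of the brighter probe between -0.74 (without cafeteria 4) and -0.41 (without cafeteria 1).

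The low Il1b values of cafeteria 1 and cafeteria 7 were not set by single spots. The brighter probe is printed 10 times on the array, and the standard deviation of its repeated spots within an array was 0.024 to 0.066, against 0.65 between cafeteria animals and 0.10 between control animals. Its mean Cy5 intensity was 4276, 10362, 4936, 10836 and 9459 in cafeteria animals, against 10091, 8819, 9864 and 11195 in control animals. The Cy5 signal before any normalization thus had the same 2 animals lowest.

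**Figure D2:**
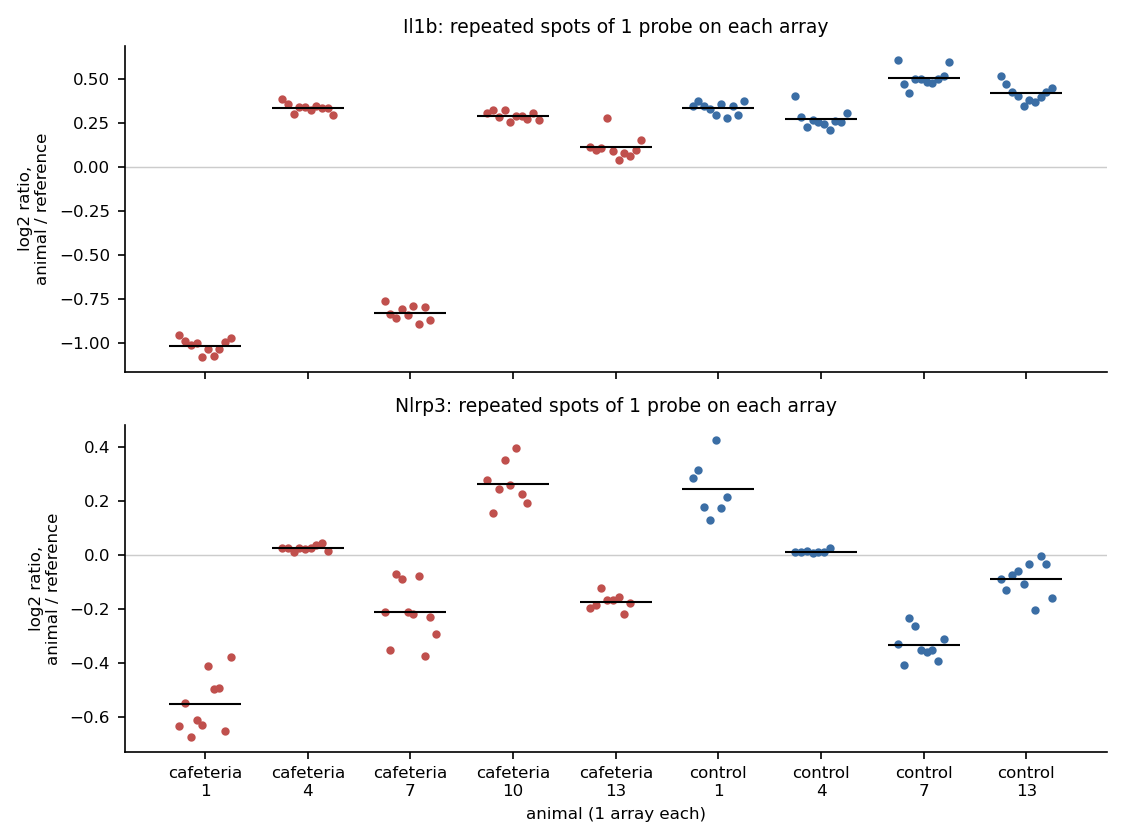
Log2 ratio of every repeated spot of the Il1b brighter probe (upper) and of the Nlrp3 probe (lower) on each array, with the array's mean as a black line, cafeteria in red and control in blue. For Il1b the spots of 1 array lie close together and cafeteria 1 and 7 lie far below the rest, while the Nlrp3 spots of cafeteria 4 and control 4 are drawn together near 0 by the background correction.

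Cafeteria 1 shared a slide with control 1, and cafeteria 10 with control 13, while the other arrays were alone on theirs. Within the slide of cafeteria 1 and control 1 the Il1b difference was -1.35 for the brighter and -1.44 for the dimmer probe. Within the slide of cafeteria 10 and control 13 it was -0.13 and -0.07. The direction was the same on both slides and the size differed as the animals did.

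The other ligands were interleukin 1 alpha and interleukin 18. Il1a (chr3:116914826-116914885) was well above background on 1 of 9 arrays, control 4, and was not tested, and its Cy5 intensity was 61.8 to 80.7 in cafeteria and 61.2 to 99.0 in control animals. Il18, whose product drives interferon gamma production and which many cell types hold at rest, was detected on all 9 arrays by both of its probes (chr8:53943005-53943064 and chr8:53927434-53927493). The brighter one gave -0.16, -0.35, 0.59, -0.15 and 0.36 in cafeteria animals, against -0.31, -0.24, 0.10 and -0.18 in control animals. Cafeteria 7 and cafeteria 13 were highest and the groups overlapped, with a log2 fold change of 0.22 (SE 0.19, interval -0.20 to 0.64, exact permutation p = 0.365). It was 0.083 without cafeteria 7, 0.14 without cafeteria 13 and 0.32 without cafeteria 4. The dimmer Il18 probe had the same animals highest, with a log2 fold change of 0.17 (SE 0.10, exact permutation p = 0.230), which was 0.10 without cafeteria 7, and the probes had r = 0.92 over the 9 arrays. Cafeteria 7, which was low for Il1b, was thus the highest of all animals for Il18.

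Il1rn, the interleukin 1 receptor antagonist, had its brighter probe at chr3:2613130-2613189. It gave -0.73, 0.69, -0.43, 0.18 and 0.16 in cafeteria animals, against 0.04, 0.17, -0.03 and 0.17 in control animals. Cafeteria 1 and cafeteria 7 were again lowest, but cafeteria 4 was the highest animal, so that the cafeteria mean (-0.03 ± 0.56, SD, n = 5) was close to the control mean (0.08 ± 0.10, SD, n = 4). The log2 fold change was -0.11 (SE 0.24, interval -0.66 to 0.43, exact permutation p = 0.730), and it was 0.06 without cafeteria 1. The dimmer Il1rn probe, which the files place over an interval of 1035 bases (chr3:2609497-2610531), had Cy5 intensities of only 89.5 to 135 in cafeteria and 93.5 to 128 in control animals. Its log2 fold change was -0.09 (SE 0.08, exact permutation p = 0.286). It was -0.11 without background correction, -0.54 with the scanner's log ratio, -0.041 without cafeteria 7 and -0.053 without control 7.

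The receptors were at or near background. Il1r1, the signalling receptor for both interleukin 1 forms, was well above background on 0 of 9 arrays with either of its 2 probes (chr9:39462421-39464677 and chr9:39472634-39473165). Its Cy5 intensity was 57.9 to 64.1 in cafeteria and 55.7 to 62.8 in control animals, so it was not well above background in either group and no fold is given. Il1r2, the decoy receptor that binds interleukin 1 without signalling, was well above background on 8 arrays, all but cafeteria 1 (chr9:39316654-39319494). Its log2 ratios were -0.26, -0.03, -0.58, -0.10 and -0.17 in cafeteria animals, against -0.19, -0.02, -0.19 and -0.02 in control animals. Cafeteria 7 and cafeteria 1 were lowest, and the log2 fold change was -0.12 (SE 0.11, interval -0.37 to 0.12, exact permutation p = 0.373). It was -0.037 without cafeteria 7 and -0.32 with the scanner's log ratio. Without background correction it was -0.05 (SE 0.09), and the Cy5 intensity was only 91.5 to 131 in cafeteria and 90.2 to 136 in control animals.

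Since cafeteria 1 and 7 were low for both Il1b and its antagonist, the log2 ratio of the brighter Il1rn probe was subtracted from that of Il1b in each animal. This difference was chosen after the values were seen and is given without a test. For the brighter Il1b probe it was -0.29, -0.35, -0.40, 0.11 and -0.05 in cafeteria animals, against 0.30, 0.11, 0.54 and 0.25 in control animals. Only cafeteria 10 and control 4, which nearly coincided, overlapped, and the means were -0.19 ± 0.22 (SD, n = 5) in cafeteria and 0.30 ± 0.18 (SD, n = 4) in control. For the dimmer Il1b probe it was -0.46, -0.43, -0.44, -0.05 and -0.28 in cafeteria animals, against 0.22, 0.03, 0.02 and 0.04 in control animals, and the groups did not overlap. The cafeteria animals were thus lower for Il1b relative to Il1rn by 0.49 and 0.41 on the log2 scale (differences of group means -0.49 and -0.41), including cafeteria 4, in which neither Il1b probe was low but Il1rn was high. Under 5 other scalings of the arrays the mean difference stayed between -0.52 and -0.47 for the brighter probe and between -0.42 and -0.37 for the dimmer one. A shift shared by a whole array cancels in this difference, so part of that steadiness was built in. For the dimmer probe the groups did not overlap under any of them. For the brighter probe they overlapped with Cy5 alone and with the authors' values. Among single probes 1.26% had groups that did not overlap, and the share over pairs of probes was not counted.

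**Figure D3:**
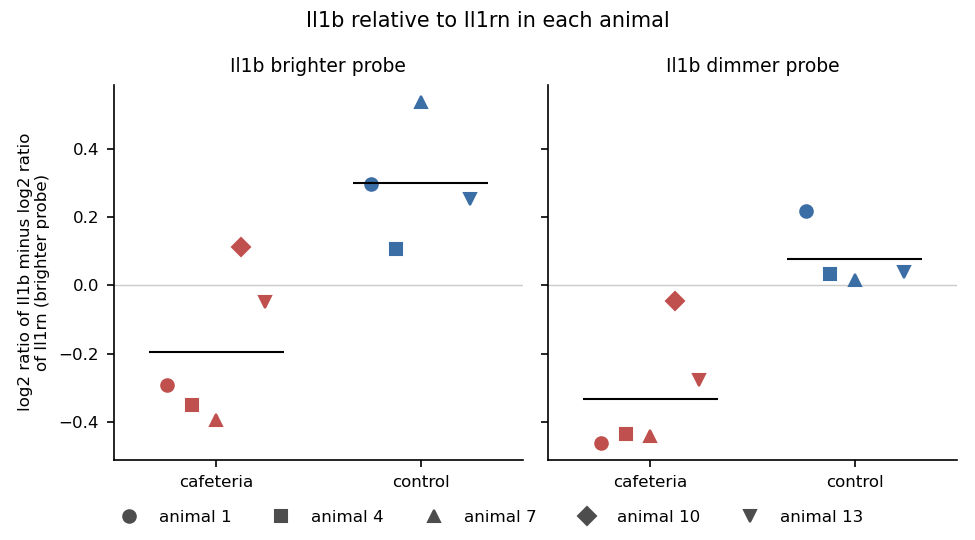
Log2 ratio of Il1b minus that of the brighter Il1rn probe in each animal, for the brighter (left) and dimmer (right) Il1b probe. Each point is 1 animal, its shape the animal's number, and black lines are group means. The 0 line marks the balance in the pooled reference. Of the cafeteria animals only cafeteria 10 reaches the control range, in the left panel.

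Among the inflammasome genes no probe had a log2 fold change beyond 0.09 in size, though the spread differed between genes. Nlrp3, the sensor, gave -0.55, 0.03, -0.21, 0.26 and -0.17 in cafeteria animals, against 0.25, 0.01, -0.33 and -0.09 in control animals (chr10:45873953-45874157). Cafeteria 1 was lowest, but control 7 was lower than the other 4 cafeteria animals, and the groups overlapped. The log2 fold change was -0.09 (SE 0.16, interval -0.45 to 0.27, exact permutation p = 0.667). Nlrp3 was well above background on all 9 arrays, but its Cy5 intensity was only 121 to 284 in cafeteria and 106 to 256 in control animals. Without background correction Nlrp3 was 0.23 in cafeteria 4 and 0.19 in control 4, and the log2 fold change was -0.07 (SE 0.20). The standard deviation of the repeated Nlrp3 spots within an array was then 0.036 to 0.094, below the spread between animals.

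Pycard, the adaptor ASC, had its brighter probe at chr1:187276921-187276980. It gave -0.20, -0.06, 0.10, -0.17 and 0.04 in cafeteria animals, against -0.07, -0.05, -0.37 and -0.08 in control animals. Control 7 was the lowest animal and the groups overlapped, with a log2 fold change of 0.09 (SE 0.09, interval -0.11 to 0.28, exact permutation p = 0.373). The second Pycard probe (chr1:187276076-187276135) lies on the opposite strand in the files, so which transcript it reads is not settled, and it did not follow the first (r = 0.22 over the 9 arrays). Its log2 fold change was -0.05 (SE 0.11, exact permutation p = 0.698).

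Casp1, the caspase that cuts both cytokines, had the smallest range over the 9 animals of the 12 probes tested (0.286). Its probe (chr8:2032917-2032976) gave 0.12, 0.10, -0.04, -0.05 and 0.16 in cafeteria animals, against 0.20, 0.21, -0.07 and 0.08 in control animals. The groups overlapped throughout, and cafeteria 1, which had the lowest Il1b, lay above the reference for Casp1. The log2 fold change was -0.05 (SE 0.08), with a 95% confidence interval of -0.22 to 0.13 that holds fold levels from 0.859 to 1.09 (exact permutation p = 0.579). Casp4, the rodent caspase-11 gene whose product senses bacterial lipopolysaccharide in the cytosol (chr8:2075044-2075103), gave -0.12, 0.20, -0.12, 0.04 and 0.34 in cafeteria animals, against 0.24, 0.10, 0.05 and -0.02 in control animals. Its log2 fold change was -0.02 (SE 0.11, interval -0.26 to 0.21, exact permutation p = 0.841), with cafeteria animals both highest and lowest.

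**Figure D4:**
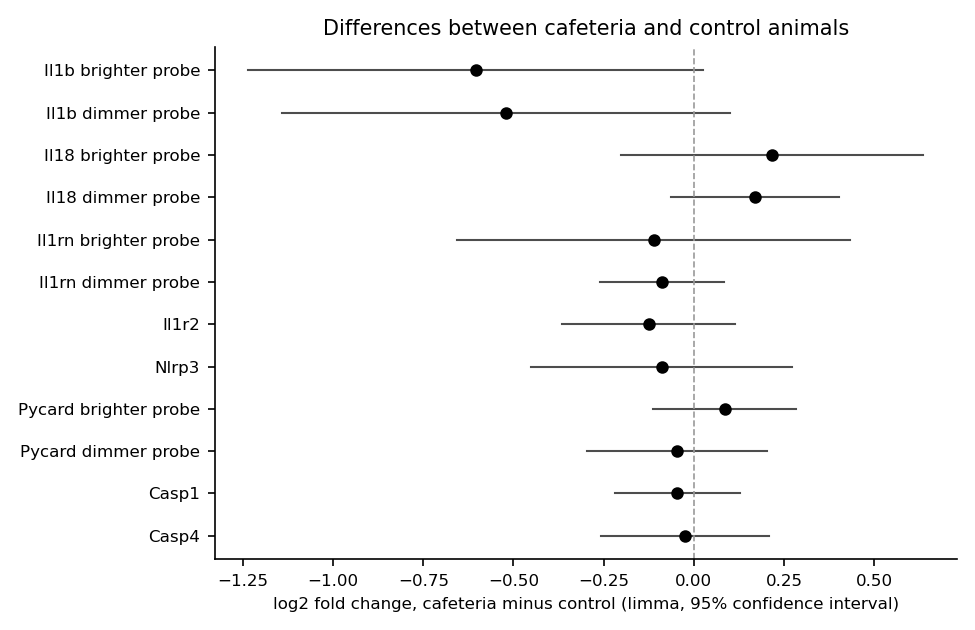
Log2 fold change of cafeteria over control for the 12 member probes tested, with 95% confidence intervals from limma. All intervals hold 0, those of Il1b reach furthest to the left (-1.24 to 0.03 for the brighter probe), and that of Casp1 is among the narrowest (-0.22 to 0.13).

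Across the members, cafeteria 1 or cafeteria 7 was the lowest animal for 7 of 12 probes, and these animals held both of the lowest places for 6 of 12 (both probes of Il1b and of Il1rn, Il1r2 and Casp4). For the dimmer Il1rn probe this rested on the background correction. Without it cafeteria 13 (-0.100) lay below cafeteria 1 (-0.045). Probes of the same gene are counted apart here, and the matching shares over all probes were not counted. Cafeteria 7 was also the highest animal for 4 of 12 probes, those of Il18 and Pycard. The members did not therefore vary as 1 block between animals.

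Of 58 other genes of interleukin 1 signalling and inflammasome control, 43 were tested, 8 were not detected on 4 arrays and 7 had no named probe. None of the 43 was called by limma, and none had an unadjusted p under 0.05, while 18 were higher and 25 lower in cafeteria, with a median log2 fold change of -0.03 beside 0.0092 over all probes. Among the receptors and accessory chains 3 of 5 were higher and 2 lower, and the receptor for interleukin 33, Il1rl1, had a log2 fold change of -0.12 (SE 0.07). Il18rap, the accessory chain of the interleukin 18 receptor, was 1.44 in cafeteria 7 and between -0.0023 and 0.28 in the other 8 animals, the same animal that was highest for Il18. Among the ligands and soluble inhibitors, Il18bp, which binds interleukin 18, had a log2 fold change of 0.10 (SE 0.07).

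The adaptors and kinases below the receptor had 4 of 11 genes higher and 7 lower. Tab2, which links TAK1 kinase to ubiquitin chains, had the smallest p of the 43 genes, with a log2 fold change of -0.16 (SE 0.07), and Irak4, the first kinase recruited by MyD88, had 0.13 (SE 0.07). Of 7 other sensors, 3 were higher and 4 lower, led by Nlrp10 at 0.22 (SE 0.11). Gsdmd, the pore-forming protein cut by inflammatory caspases, had -0.11 (SE 0.07). Of 12 activators and regulators 6 were higher and 6 lower, with P2rx4, an ATP-gated channel, at 0.40 (SE 0.21) and the guanylate-binding protein gene Gbp2 at -0.21 (SE 0.15). The NLRP3-binding kinase Nek7 had probes that disagreed in size, with -0.04 for the brightest and -0.44 for another, whose unadjusted limma p was under 0.05.

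Several marker lists had their lowest mean log2 ratios in the same cafeteria animals as Il1b. The mean log2 ratio of 14 monocyte markers was -0.55, 0.28, -0.44, 0.28 and -0.20 in cafeteria animals, against 0.17, 0.16, -0.15 and -0.11 in control animals, and 10 of the 14 were lower in cafeteria with none called. Cafeteria 1 and 7 were lowest, and the summed Cy5 level of the list was 63797 to 220535 in cafeteria and 96491 to 174846 in control animals. Cd14, the monocyte lipopolysaccharide receptor, was -1.55, 0.40, -1.19, 0.82 and -0.64 in cafeteria animals, against 0.40, 0.05, -0.14 and -0.04 in control animals. It was below every control animal in cafeteria 13 too, as Il1b was. Other monocyte markers had other orders. Ms4a7 was highest in cafeteria 1 (1.12), and Tlr4 was 0.39 in cafeteria 1 and 0.43 in cafeteria 7. Itgam was 0.26 in cafeteria 1 but -0.64 in cafeteria 7. These genes were picked after their values were seen. Cd163 was not detected on 4 arrays.

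The mean of 15 immediate early and handling response genes was -0.77, -0.01, -0.48, 0.27 and -0.27 in cafeteria animals, against 0.04, -0.39, -0.14 and -0.06 in control animals (10 of 15 lower, none called, summed Cy5 level 144325 to 229701 in cafeteria and 154505 to 192054 in control animals). Platelet markers averaged -0.67, -0.13, -0.87, 0.41 and 0.27 in cafeteria animals, against -0.16, 1.15, -0.42 and 0.23 in control animals (8 of 8 lower, none called, summed Cy5 level 563826 to 876578 in cafeteria and 666223 to 1109684 in control animals). Neutrophil markers averaged -0.25, 0.08, -0.31, -0.0023 and 0.05 in cafeteria animals, against -0.17, 0.03, 0.11 and 0.03 in control animals (5 of 8 lower, none called, summed Cy5 level 4401 to 6488 in cafeteria and 4431 to 6362 in control animals), and 6 further neutrophil genes, Cxcr2, Mmp8, Ltf, Mpo, Fpr1 and Cxcr1, were not detected on 4 arrays. By mean log2 ratio, cafeteria 1 and 7 held the lowest places in each of these lists. By summed Cy5 level this did not hold for the handling and neutrophil lists. For handling, cafeteria 7 (188810) lay above control 4 (154505) and control 1 (176045). For neutrophils, control 1 (4431) lay below cafeteria 1 (4567).

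The remaining lists had other orders. Dendritic cell markers (2 of 7 genes tested, 2 higher, none called) averaged lowest in cafeteria 1 (-0.39), with control 13 next (-0.32). Basophil, mast cell and eosinophil markers (5 of 8 genes tested, 5 higher, none called) averaged lowest in control 1 (-0.26). The 10 cytotoxic T and NK cell markers were all higher in cafeteria (none called, 3 with an unadjusted limma p under 0.05, summed Cy5 level 274112 to 535459 in cafeteria and 232638 to 306559 in control animals), with means of -0.19, -0.21, 0.57, -0.0050 and 0.19 in cafeteria animals, against -0.14, -0.51, -0.30 and -0.10 in control animals, and cafeteria 7 was the highest. B cell markers were higher in cafeteria for 8 of 8 genes tested (none called, 1 with an unadjusted limma p under 0.05, median log2 fold change 0.28, summed Cy5 level 40864 to 62420 in cafeteria and 38479 to 54171 in control animals), with means of -0.26, -0.0057, 0.10, 0.31 and 0.34 in cafeteria animals, against -0.24, 0.09, -0.31 and -0.28 in control animals, and control 7 was the lowest. T cell markers were lower in cafeteria for 11 of 12 (none called, 2 with an unadjusted limma p under 0.05, median -0.09, summed Cy5 level 206691 to 300571 in cafeteria and 213898 to 306180 in control animals), with means of 0.03, -0.06, -0.18, -0.24 and -0.40 in cafeteria animals, against 0.08, -0.25, -0.07 and 0.13 in control animals, and cafeteria 13 was the lowest. For both lists the groups overlapped. Erythroid markers, of which Ahsp, the chaperone of alpha globin, is one, were higher for 8 of 8 (none called, 6 with an unadjusted limma p under 0.05, summed Cy5 level 33729 to 52004 in cafeteria and 21505 to 31692 in control animals). Their means were -0.0078, -0.07, -0.56, -0.39 and -0.26 in cafeteria animals, against -0.71, -0.69, -0.91 and -0.80 in control animals, and did not overlap. The part of any of these cell types, or of handling, in the values of Il1b and the other members was not tested.

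**Figure D5:**
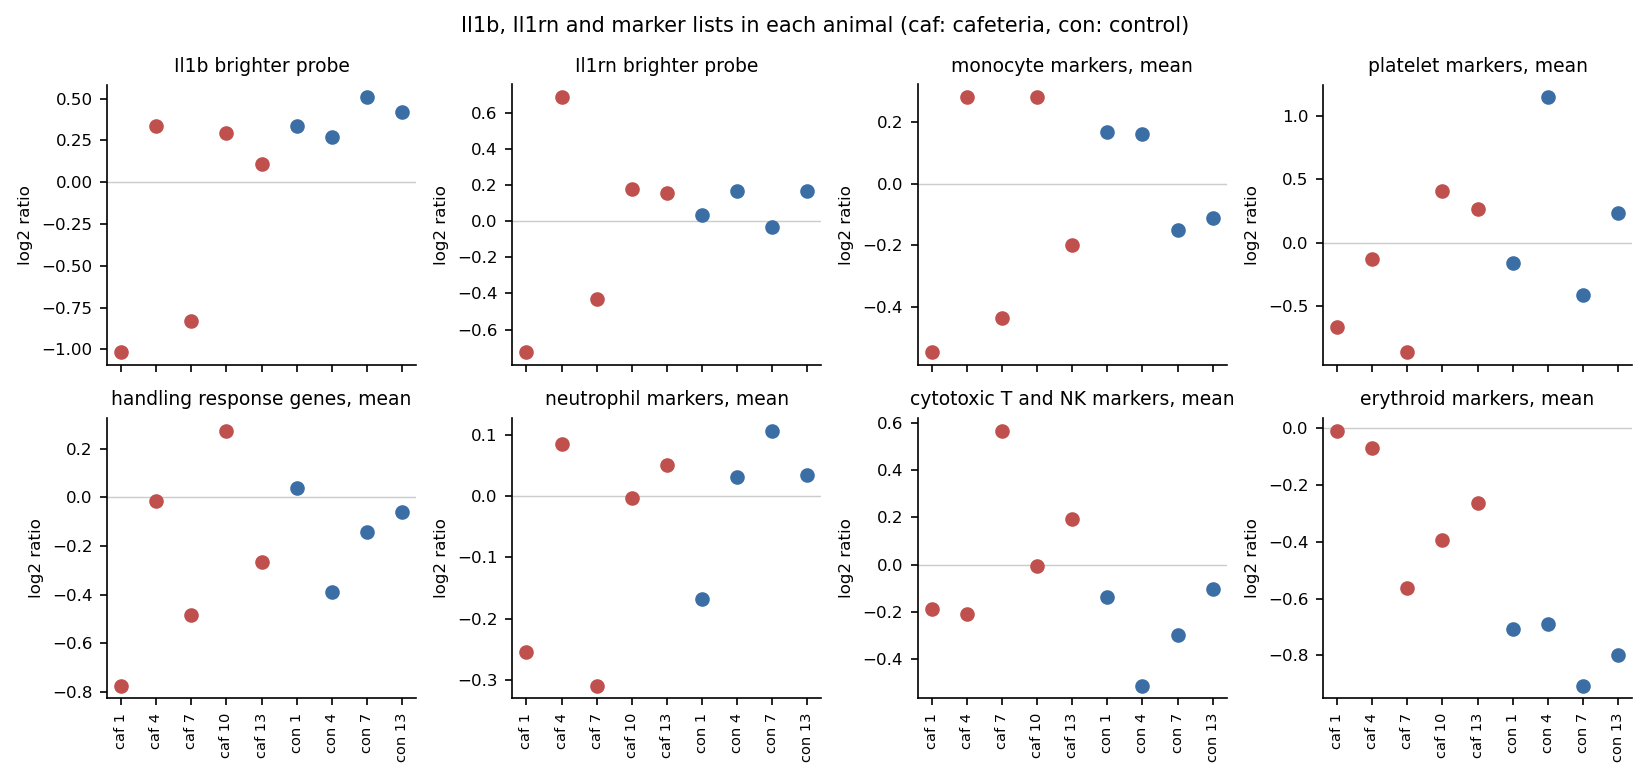
Log2 ratio of Il1b and Il1rn (brighter probes) and the mean log2 ratio of 6 marker lists in each animal, cafeteria in red to the left and control in blue to the right, each panel with its own vertical scale. Cafeteria 1 and 7 are the lowest points for Il1b, Il1rn and the monocyte, platelet, handling and neutrophil lists, but not for the cytotoxic T and NK or erythroid lists.

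Among 10498 other named genes, those whose log2 ratios over the 9 arrays were most like Il1b were Pecam1 (r = 0.946), Frem2 (0.941), Xylt1 (0.937), Ccl2 (0.935) and Trim55 (0.928). Without cafeteria 1 and cafeteria 7, the animals farthest from the median for Il1b, r was 0.295, 0.214, 0.894, 0.741 and 0.749 in the same order. The likeness of Pecam1 and Frem2 thus rested on those 2 animals. Ccl2, the chemokine that draws monocytes, had a log2 fold change of -0.79, with an unadjusted limma p under 0.05 that did not pass adjustment. For Casp1 the most alike were Ndufa13-ps1 (r = 0.946), Stk11 (0.936), Mrpl43 (0.931), Gnl2 (0.915) and Ifih1 (0.898), with r of 0.795 to 0.920 without control 7 and cafeteria 10. These correlations were picked as the highest of many over 9 arrays and are a description only.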

How the data were processed

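Gene expression was measured in blood mononuclear cells of 9 rats (5 cafeteria, 4 control) with 1 two-colour Agilent array per animal, Cy5 for the animal and Cy3 for the pooled reference, without dye swaps. The authors deposited mean spot and median background intensity of both dyes per spot, not normalized, read with Agilent Feature Extraction. The files also hold the scanner software's log10 ratio after background subtraction and linear and lowess dye normalization, per the file headers. A table of log2 values deposited by the authors, filled for 21466 of 45220 spots, followed Cy5 in rank (Spearman 0.993 to 0.999), and its normalization is not given in the sources used here.

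From the intensities, background was corrected by normexp (offset 50), ratios were normalized by loess within arrays with control spots at weight 0, outlier spots were left out and repeated spots averaged. Probes with Cy5 well above background on at least 4 arrays were tested (25808 of 41012), with a probe counted as such when at least 0.5 of its spots were. The tools were limma 3.58.1 (lmFit and eBayes, 7 residual and 2.94 prior degrees of freedom, Benjamini-Hochberg over all probes tested, threshold 0.05), statmod 1.5.0 and version 1.17.8 of data.table, in R 4.3.3, with Python 3.11.15 and matplotlib 3.10.9 for figures. The fit was tested on simulated data. Arrays give no counts, and their number limits the precision.

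Probe names were updated through a RefSeq gene table, which matched 19625 probes (47.9%). Positions are rn4 as given in the files, and promoter sequences are RefSeq on GRCr8. All member genes were named. Of the pathway list, up to 4 genes in each direction with the smallest unadjusted p were named, with one probe per gene, that of highest mean signal. Il18rap, Nek7, Ccl2, Cd14, Cxcl2 and Fos were singled out after their values were seen. The members, the lists and the naming rule were chosen with earlier results of these data known. Alternatives covered background correction, normalization, the reference channel, the authors' values, the filter, slide, replicate number, the prior, array weights and each array left out.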

Additional observations from a re-analysis of the deposited data

Results flagged for a closer look

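The brighter Pycard probe in control animals had 1 animal far from the others: control 7 was at -0.37, and the next lowest control animal was at -0.08, a gap of 0.931 of the group's whole range where 0.829 is the 95% critical value for 4 animals. It was 1 of 24 groups examined for such a value, and chance flags about 1 in 20 groups. The second Pycard probe did not have control 7 low (0.24, the highest of the control animals). No cause was tested.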

How the results depend on the processing

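No member probe passed the adjusted threshold under any alternative. Over all probes, the 2 calls became 0 without background correction, with median centring, with the log ratio made by the scanner, with only Cy5, with the authors' deposited values as given or centred, with slide as a fixed block, with a replicate block, with a trended and robust prior, with array weights, and with both animals numbered 4 left out (an alternative chosen after the data were seen). The count stayed at 2 with no filter, with the filter on all 9 arrays and with slide as a random block, and leaving out single animals gave 0 to 2 (0 without cafeteria 1, 10 or 13 or control 4 or 7, and 1 without cafeteria 7 or control 1). The causes were not tested.

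Both Il1b probes kept their direction under all 16 alternatives beside single animals left out, from -1.35 to -0.13 (brighter) and -1.44 to -0.07 (dimmer), the extremes being the slides that held both groups. With array weights they were -0.38 and -0.32. Leaving out single animals gave -0.74 to -0.41 and -0.67 to -0.31. The adjusted p of the brighter probe ranged from 0.452 to 1.00 over these fits, and its lowest unadjusted p was 0.0250.

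Directions reversed in 27 of 382 values. Median centring gave -0.013 and 0.012 for the brighter and dimmer Pycard probes and 0.041 for Casp4. The scanner's log ratio gave 0.0040 for Casp4, and Cy5 alone gave 0.016 for Casp1. The authors' values, which shift the median of all probes to 0.13, gave 0.054 for the brighter Il1rn probe, 0.057 for the dimmer Pycard probe and 0.12 for both Casp1 and Casp4. Slide as a fixed block gave 0.012 for the dimmer Il1rn and -0.11 for the brighter Pycard probe. Array weights gave 0.077 for the brighter Il1rn probe and 0.081 for Casp4. With single animals left out, the brighter Il1rn probe ranged from -0.29 to 0.064 (above 0 without cafeteria 1) and Nlrp3 from -0.19 to 0.017 (above 0 without cafeteria 1 or control 1). Casp4 ranged from -0.092 to 0.025 (above 0 without cafeteria 1, cafeteria 7 or control 1) and the dimmer Pycard probe from -0.13 to 0.030 (above 0 without cafeteria 10). Within slide 3 the brighter Pycard probe was -0.12. Within slide 5 the brighter Il1rn probe was 0.013, the dimmer 0.17, Nlrp3 0.35, the brighter Pycard probe -0.089 and Casp4 0.061. The causes were not tested.

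Deviations of same-numbered animals from their group means correlated at -0.05, 0.11, 0.10 and -0.15 over probes. These values cannot settle whether the replicate numbers pair the animals, and the sources used here do not say. With the replicate block, 0 of 25808 probes were called, and the dimmer Pycard probe was 0.030. Il1b was then -0.73 and -0.64, with unadjusted limma p of 0.036 and 0.041 that did not pass adjustment (adjusted p = 0.987 for each). Signal over background limits Il1a, Il1r1, Il1r2 and the dimmer Il1rn probe, whose differences were not detectable at these intensities. It also limits Nlrp3, which was dim, and dim probes on the arrays of cafeteria 4 and control 4.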

Other observations

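Cxcl2, a chemokine gene of the handling response list, was picked after its values were seen because it had the same 2 animals lowest as Il1b. Its log2 ratio was -4.06, -0.34, -2.51, 0.99 and -1.86 in cafeteria animals, against -0.09, -1.10, -0.90 and -0.26 in control animals. The log2 fold change of -0.97 did not pass the test (limma, adjusted p = 0.997). Fos, an immediate early gene, was -1.31, -0.09, -0.72, 0.37 and -0.71 in cafeteria animals, against 0.37, -0.45, -0.57 and -0.04 in control animals. In both genes cafeteria 13 was the next lowest of the cafeteria animals, as it was for both Il1b probes. Fos too was picked from the list after its values were seen. Other genes of the list had other orders: Ier3 was highest in cafeteria 1 (0.50), Ier2 was highest in cafeteria 13 (0.44) and Jun was lowest in control 4 (-0.95).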
